A study of Mus musculus with 15 samples.

Results

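Small leucine-rich proteoglycans are secreted matrix proteins with a short leucine-rich repeat core, and 8 of their genes, Prelp, Lum, Dcn, Bgn, Fmod, Ogn, Omd and Aspn, were followed in 15 mouse cell lines. The genes were taken by the gene symbol that the array platform's annotation gives a probe set, a group of short probes for one transcript. All 19 probe sets of the 8 genes were used, among 45037 probe sets and 18193 genes in all. The members were chosen by values measured here, those of the AKP against AP comparison, in which Prelp stood out, so differences between AKP and AP lines are given below as descriptions with no test.

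The lines carry the genotype label AKP in 12 cases and AP in 3, and these letters are not spelled out in the labels. The series' design text counts 10 AKP lines, while 12 are labelled so. The series' title speaks of genetically engineered mouse models; the labels used here name no tissue, strain, age, driver or allele. The AKP group holds 11 lines labelled tumour and 1 labelled adenoma, and all 3 AP lines are labelled tumour. Of the AKP lines 9 are labelled female and 3 male, and of the AP lines 1 is female and 2 are male; 7 AKP lines and 1 AP line carry a pair number whose meaning is not given. Lines of both groups were untreated and were grown in DMEM with 10% serum, and each was measured once on an Affymetrix array of messenger RNA. Each line is 1 culture, so the spread within a group is that between lines, and the 3 AP lines limit the precision. The deposited values are on a log2 scale, on which 1 unit is a factor of 2, and in each array 35.9% to 39.5% of the probe sets lay below 3, called the floor here. A value near the floor cannot be told from background.

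Decorin (Dcn) and biglycan (Bgn) carry chondroitin or dermatan sulfate chains, while lumican (Lum), fibromodulin (Fmod), Prelp, osteoglycin (Ogn) and osteomodulin (Omd) belong to branches of the family that can carry keratan sulfate or no such chain, and asporin (Aspn) carries none. Most of them bind collagen and affect the width and spacing of its fibrils, and decorin, biglycan and asporin also bind TGF-beta. In tissue they are mainly products of fibroblasts and other connective tissue cells. Several lie side by side in the genome. In the gene order of GRCm38.p6, Optc, Prelp and Fmod are neighbours on chromosome 1, Dcn, Lum, Kera and Epyc on chromosome 10, and Ecm2, Aspn, Omd and Ogn on chromosome 13, while Bgn is on the X chromosome.

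The bases just before the start of a gene are shown for the 3 neighbours of chromosome 13, whose levels moved together in part of the lines, and for Prelp, whose groups lay farthest apart among the members. They are the 250 bases upstream of the start, from RefSeq on GRCm38.p6, at chr13:49544193-49544442 for Aspn, chr13:49582212-49582461 for Omd and chr13:49607765-49608014 for Ogn, all on the plus strand, and at chr1:133921402-133921651 on the minus strand for Prelp. Capitals mark matches on either strand to TATAAA (the TATA box), GGGCGG (the GC box), TGANTCA (AP-1 sites), CACCTG (an E-box that ZEB and SNAIL factors bind) or CATTCC (the TEAD site).
Aspn: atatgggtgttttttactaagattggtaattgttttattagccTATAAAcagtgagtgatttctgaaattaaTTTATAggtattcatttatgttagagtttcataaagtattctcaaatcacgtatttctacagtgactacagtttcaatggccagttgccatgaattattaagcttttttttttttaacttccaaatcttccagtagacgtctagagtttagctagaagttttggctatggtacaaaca
Omd: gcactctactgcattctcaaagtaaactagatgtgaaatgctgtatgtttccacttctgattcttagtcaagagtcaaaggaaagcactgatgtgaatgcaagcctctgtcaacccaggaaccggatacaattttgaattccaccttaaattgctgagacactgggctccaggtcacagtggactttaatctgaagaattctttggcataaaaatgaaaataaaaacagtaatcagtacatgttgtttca
Ogn: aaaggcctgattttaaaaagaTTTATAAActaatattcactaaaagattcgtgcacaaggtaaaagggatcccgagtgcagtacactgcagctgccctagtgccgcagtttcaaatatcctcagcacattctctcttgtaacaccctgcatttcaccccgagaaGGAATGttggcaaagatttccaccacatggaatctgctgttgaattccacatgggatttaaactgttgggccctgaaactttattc
Prelp: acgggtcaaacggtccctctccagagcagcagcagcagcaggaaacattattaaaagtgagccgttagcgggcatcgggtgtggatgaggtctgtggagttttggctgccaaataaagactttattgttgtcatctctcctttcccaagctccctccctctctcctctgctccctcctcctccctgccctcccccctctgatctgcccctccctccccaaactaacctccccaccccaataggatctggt

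Aspn and Ogn held TATAAA in these windows, with first bases 207 and 178 bases before the start in Aspn, and 229 and 227 bases before it in Ogn, where the matches overlap. Ogn also held the TEAD letters, 86 bases before the start. The windows of Omd and Prelp held no match to the 5 motifs. Among 32851 windows of the same length, 12.4% held TATAAA, 32.7% GGGCGG, 6.75% TGANTCA, 17.2% CACCTG and 12.6% CATTCC. Of the members, 6 had an entry in the sequence table; the window of Fmod held no match, and that of Bgn held GGGCGG 34, 10 and 6 bases before the start, with the last 2 matches overlapping. G and C made up 30.0% of the Aspn window, 38.4% of the Omd window, 42.0% of the Ogn window and 55.6% of the Prelp window, beside a median of 52.4% over all windows.

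Among the 15 lines, AKP 1 and AP 1 stood apart from the rest, with median correlations over genes of 0.922 and 0.892 with the other lines, and AP 1 had the highest value of Prelp, Bgn, Fmod, Ogn and Aspn. No array was a copy of another, since correlations between lines ran between 0.874 and 0.980. The fibroblast markers (9 of 10 measured) had a median level between 2.89 and 12.06 in AKP lines and between 6.97 and 12.81 in AP lines, and AKP 1 (12.06), AKP 8 (7.95) and AP 1 (12.81) were the highest of them. The simple epithelium markers (8 of 8 measured) had a median between 5.08 and 12.97 in AKP lines and between 3.04 and 11.5 in AP lines; AP 1 was the lowest, and Krt18, a keratin of simple epithelia, lay at 3.62 there. Smooth muscle and pericyte markers (8 measured) reached a median of at most 4.49 in AKP lines and 7.30 in AP lines. Of the endothelial markers 0 of 7 reached 8 in any line, of the haematopoietic markers at most 1 of 8 did, and of the mesothelial markers at most 1 of 5 did; Tie1, Tyrobp, Cd79a, Upk3b and Lrrn4 lay below the floor in every line. The cartilage and bone markers (6 of 8 measured) had at most 2 members at 8 or above in a line. A level in such a culture is an average over its cells, so fewer cells of a type and less RNA per cell cannot be told apart.

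Prelp, which binds collagen and the heparan sulfate of basement membranes, was lower in every AKP line than in any AP line. Its brighter probe set lay at 7.47, 2.19, 5.39, 3.19, 2.21, 5.84, 4.08, 5.15, 3.67, 2.94, 6.91 and 4.78 in AKP 1 to AKP 12, and at 12.12, 10.23 and 7.68 in AP 1 to AP 3. The highest AKP lines, AKP 1 and AKP 11, came within 1 unit of the lowest AP line, AP 3, while AKP 2, AKP 5 and AKP 10 lay below the floor. The mean was 4.48 ± 1.74 in AKP (SD, n = 12) and 10.01 ± 2.23 in AP (SD, n = 3), a difference of -5.53 on the log2 scale. The other Prelp probe set showed less of this: it lay between 3.82 and 4.95 in AKP lines, and at 10.46, 6.91 and 3.96 in AP 1 to AP 3, so that AP 3 fell inside the AKP range and 9 of 12 AKP lines were lower than it. The brighter set has the suffix _s_at, which the maker gives to probes that may match more than one transcript. The pair correlated with r = 0.829 over the 15 lines. Prelp is the one member listed in the authors' deposited table of 501 entries, with a mean of 4.12 in AKP, 10.01 in AP and a difference of -5.89 on the log2 scale; that AKP mean was matched within 0.01 by 1 of 66 choices of 10 AKP lines, the one without AKP 1 and AKP 8.

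**Figure D1:**
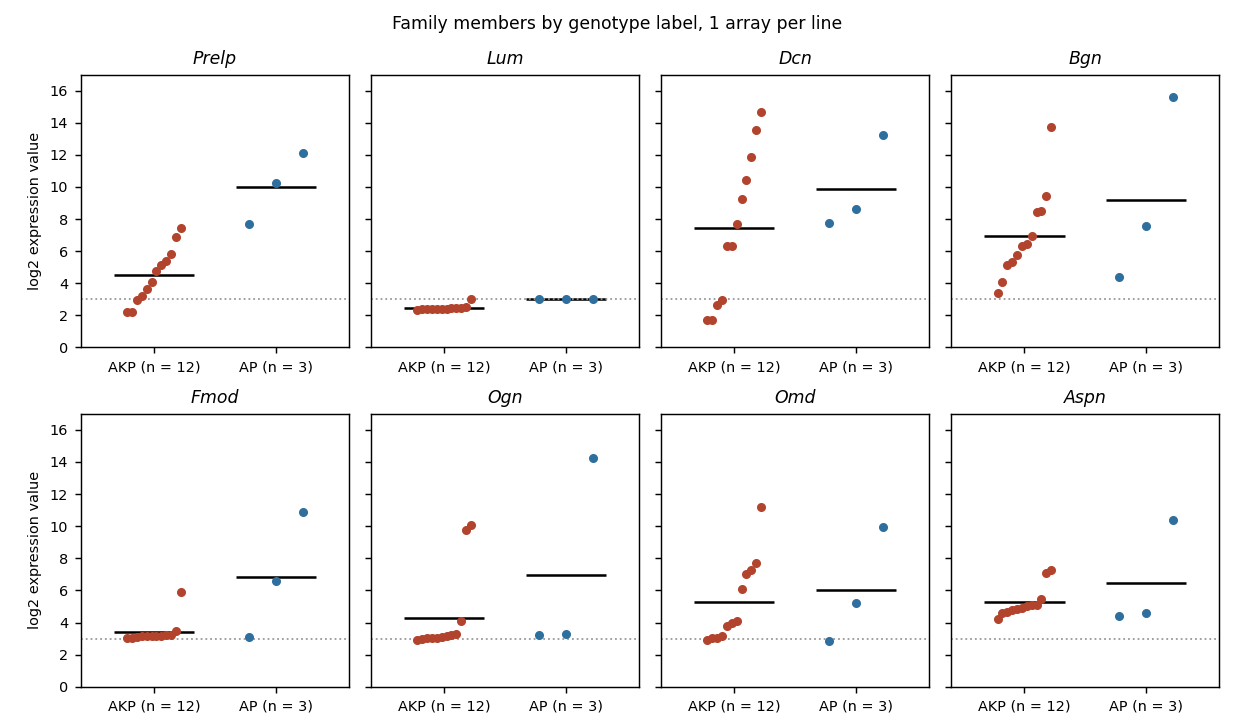
Log2 expression values of the main probe set of each member, 1 point per line, with AKP lines (n = 12) left of AP lines (n = 3), the group mean as a black bar and the floor of 3 as a dotted line. Prelp and Lum have every AKP line below every AP line, Lum on the floor; in Ogn and Aspn 1 AP line, AP 1, lies far above the other AP lines.

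Lum, which organises the collagen of the cornea and skin, was at or near the floor in all lines. It lay between 2.34 and 2.50 in 11 AKP lines and at 2.995 in AKP 8, and at 3.00, 3.00 and 3.02 in the AP lines. The groups did not overlap, yet the whole range over 15 lines was 0.683 units. The difference of the means was -0.54, at 2.47 ± 0.17 in AKP (SD, n = 12) and 3.01 ± 0.01 in AP (SD, n = 3), and it lies where the array does not separate a level from background. Kera, its neighbour and another keratan sulfate carrier, lay below the floor in all 15 lines.

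Decorin, a carrier of a single chain that binds TGF-beta and several receptor tyrosine kinases, varied most among the members and did not follow the groups. It lay at 7.68, 1.73, 13.55, 9.22, 2.65, 11.89, 14.65, 10.45, 1.70, 6.31, 2.99 and 6.34 in AKP 1 to AKP 12, and at 7.77, 13.22 and 8.65 in AP 1 to AP 3. The AKP lines ran from the floor in AKP 2, AKP 5, AKP 9 and AKP 11 to above every AP line in AKP 3 and AKP 7. The means were 7.43 ± 4.60 in AKP (SD, n = 12) and 9.88 ± 2.93 in AP (SD, n = 3), a difference of -2.45, smaller than the SD of either group. AP 1, the highest line for 5 other members, had the lowest Dcn value of the AP lines. A second Dcn probe set lay between 2.23 and 2.54 in 14 lines and at 6.57 in AKP 7, the line where the first set was highest as well.

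Biglycan, the close relative of decorin, is also a ligand of the receptors Tlr2 and Tlr4. Its main probe set lay at 13.74, 5.34, 8.52, 4.09, 9.46, 6.41, 3.36, 6.30, 5.17, 8.42, 6.96 and 5.77 in AKP 1 to AKP 12, and at 15.58, 7.56 and 4.42 in AP 1 to AP 3. AP 1 and AKP 1 were far above the rest, and AP 3 lay below 10 of the 12 AKP lines. The means were 6.96 ± 2.80 in AKP (SD, n = 12) and 9.19 ± 5.76 in AP (SD, n = 3), a difference of -2.22 that lay within the spread of each group. The 3 Bgn probe sets had Pearson correlations between 0.942 and 0.982 over 15 lines, with AP 1 and AKP 1 the highest lines in each. The order of the lower lines differed: AKP 8 lay at 6.30 in the main set, above AKP 12, AKP 2 and AKP 9. In the other sets AKP 8 lay at 4.217 and 1.671, among the lowest lines. Dcn and Bgn did not go together in their main probe sets, with a correlation of -0.08 over the 15 lines. AKP 7 had the highest Dcn and the lowest Bgn value there, and AKP 5 had Bgn at 9.46 with Dcn at 2.65. In the other Bgn probe sets AKP 7 lay at 5.581 and 1.815, and the lowest lines were AKP 12 (3.752) and AKP 4 (1.645).

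Fibromodulin, which guides collagen cross-linking, was above the floor by more than 1 unit in AKP 8 (5.89), AP 1 (10.87) and AP 3 (6.59), in its main probe set. The other 12 lines lay between 3.04 and 3.47. The means were 3.39 ± 0.79 in AKP (SD, n = 12) and 6.85 ± 3.90 in AP (SD, n = 3), a difference of -3.45. Fmod had 6 probe sets, 5 of them with the suffix _x_at for probes that may match other sequences, and AP 1 was the highest line in all 6, between 5.55 and 10.87. In the _x_at sets other than the main one, AP 3 (1.93 to 2.92) and AKP 8 (1.71 to 2.87) lay below the floor. The set without that suffix had AP 3 at 4.68 and AKP 8 at 4.535. Their differences between the group means ran from -3.45 to -1.32, and their correlations with each other from 0.881 to 1.000 over 15 lines. Prelp, its neighbour, was also highest in AP 1, but AP 2 had Prelp at 10.23 and Fmod at 3.08.

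Osteoglycin and asporin, neighbours on chromosome 13 with Omd between them, were high in the same 3 lines. The main Ogn probe set read 10.09 in AKP 1, 9.75 in AKP 8, 4.07 in AKP 7 and 2.90 to 3.26 in the other 9 AKP lines, against 14.26, 3.23 and 3.32 in AP 1 to AP 3. Aspn, which binds TGF-beta and calcium, read 7.30 for AKP 1, 7.11 for AKP 8 and 4.24 to 5.44 for the other AKP lines, against 10.39, 4.41 and 4.62 for AP 1 to AP 3. Both were at their top in AP 1, followed by AKP 1 and AKP 8, and the rest of the lines lay close together. The other Aspn probe set showed the same 3 lines over a lower base, with 7.80 for AKP 1, 7.94 for AKP 8 and 10.73 for AP 1, against 3.02 to 3.78 in the others. The main Aspn set, like the brighter Prelp set, has the suffix _s_at, given to probes that may match more than 1 transcript. In the other Ogn probe set the same 3 lines were highest, at 9.15 for AKP 1, 8.908 for AKP 8 and 13.53 for AP 1. There AP 2 lay at 4.015, AP 3 at 4.129 and AKP 7 at 4.214, and the other 9 AKP lines between 2.523 and 2.72. The group means in that set differed by -3.42. In the main probe sets the means of Ogn were 4.30 ± 2.65 in AKP (SD, n = 12) and 6.94 ± 6.34 in AP (SD, n = 3), and those of Aspn 5.26 ± 0.96 in AKP and 6.47 ± 3.39 in AP.

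Osteomodulin, a collagen-binding protein of bone and tooth, had a pattern of its own although it lies between these genes. It lay at 3.13, 3.05, 3.79, 3.96, 4.08, 2.90, 7.02, 11.17, 3.06, 6.07, 7.71 and 7.29 in AKP 1 to AKP 12, and at 9.92, 2.87 and 5.21 in AP 1 to AP 3. AKP 8 was the highest line and lay above every AP line, and AKP 1, with high Ogn and Aspn, had Omd near the floor. In AKP 7, AKP 10, AKP 11 and AKP 12 Omd lay between 6.07 and 7.71, while Ogn lay between 2.90 and 4.07. The means were 5.27 ± 2.59 in AKP (SD, n = 12) and 6.00 ± 3.59 in AP (SD, n = 3). Ecm2, a related gene next to Aspn, stayed between 2.71 and 3.21 in all 15 lines.

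**Figure D2:**
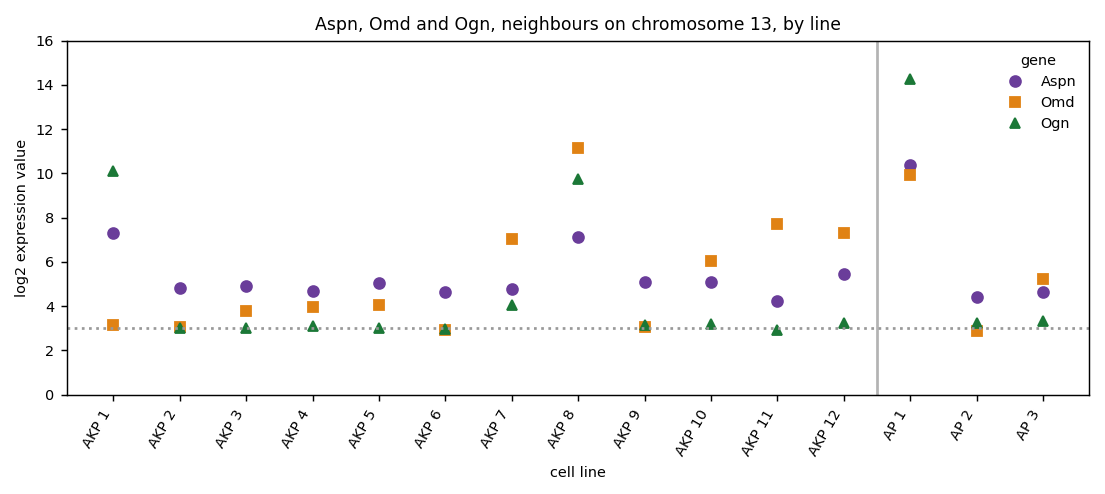
Log2 expression values of the main probe sets of Aspn, Omd and Ogn, neighbours on chromosome 13, in each line, with AKP lines left of AP lines and the floor of 3 dotted; each gene is to be read against its own values in other lines. Aspn and Ogn stand out in AKP 1, AKP 8 and AP 1, whereas Omd lies at 3.13 in AKP 1 and between 6.07 and 7.71 in AKP 7, AKP 10, AKP 11 and AKP 12.

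In limma's fit over 18193 genes, 2 of the 8 members, Prelp and Lum, were called lower in AKP, against 1.1% of all genes called lower, and in 2 of 8 every AKP line lay below every AP line, against 1.18% of all genes. The choice of the family used this comparison, so nothing is read from these counts. The median difference was -2.34 over the 8 members and 0.01 over all genes, and all 8 means were lower in AKP. Without AP 1 the median over the members was 0.103, and the differences were 0.97 for Bgn, 1.02 for Ogn, 1.23 for Omd and 0.75 for Aspn, higher in AKP in each case. Prelp, Lum, Dcn and Fmod kept a lower AKP mean with each line left out, with Prelp between -6.69 (without AP 3) and -4.47 (without AP 1), Fmod between -5.34 (without AP 2) and -1.44 (without AP 1), Dcn between -3.51 (without AP 1) and -0.78 (without AP 2) and Lum between -0.59 (without AKP 8) and -0.53 (without AKP 7).

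**Figure D3:**
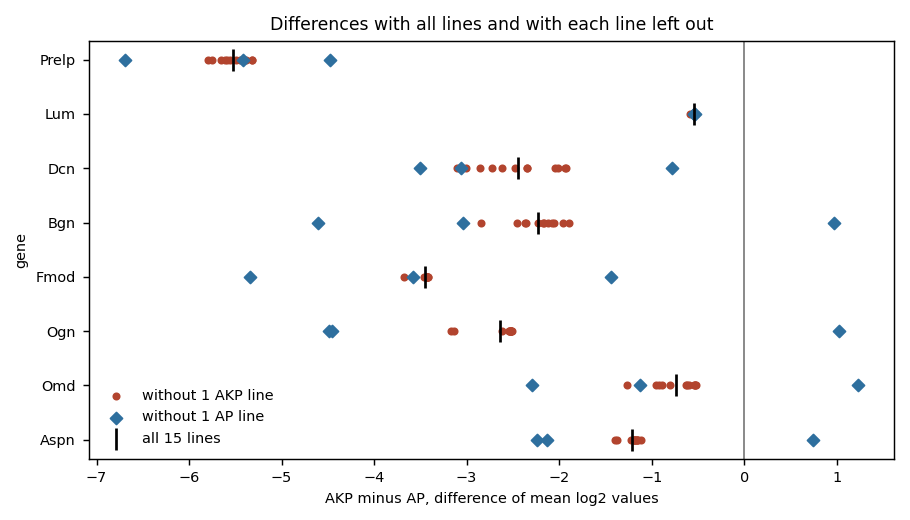
Difference of mean log2 values, AKP minus AP, in the main probe set of each member. Black bars show all 15 lines, red points the lines without 1 AKP line and blue diamonds those without 1 AP line. Leaving out AP 1 carries Bgn, Ogn, Omd and Aspn above 0, up to 1.23 for Omd, while Prelp stays at or below -4.47.

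Counted by line, with a line taken as high for a gene when it lay at least 3 units (8-fold) above that gene's lowest line, 5 of 8 members were high in AKP 1 and 7 in AP 1. The other AKP lines had between 0 (AKP 2 and AKP 9) and 3 high members, and the other AP lines 3 each. AKP 8 had 3 and came close to the limit in further members. It lay 2.96 units above the lowest line for Prelp, 2.93 for Bgn, 2.87 for Aspn and 2.85 for Fmod. By this count, made on the main probe set of each gene, Dcn was high in 8 of 12 AKP lines and 3 of 3 AP lines. Bgn was high in 6 and 2, Omd in 5 and 1, Prelp in 4 and 3, Ogn in 2 and 1, Aspn in 1 and 1 and Fmod in 0 and 2. Other probe sets gave 0 and 2 for Prelp, 1 and 0 for Dcn, and 4 and 1 or 5 and 2 for Bgn. They gave 2 and 1 for Ogn and for Aspn, and 0 and 1 for Fmod. Several correlations between members changed when a few lines were left out. Ogn and Aspn had r = 0.966 and Spearman's rho = 0.593 over 15 lines, r = 0.890 without AP 1 and AKP 1, and r = 0.103 without AKP 8 as well. Bgn and Ogn had r = 0.730 over 15 lines and -0.08 without AP 1 and AKP 1. Prelp and Dcn had r = 0.342 over 15 lines and 0.471 without those lines, and Prelp and Lum 0.662 and 0.648, with Lum at the floor. These are descriptions over lines that share platform and scaling.

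**Figure D4:**
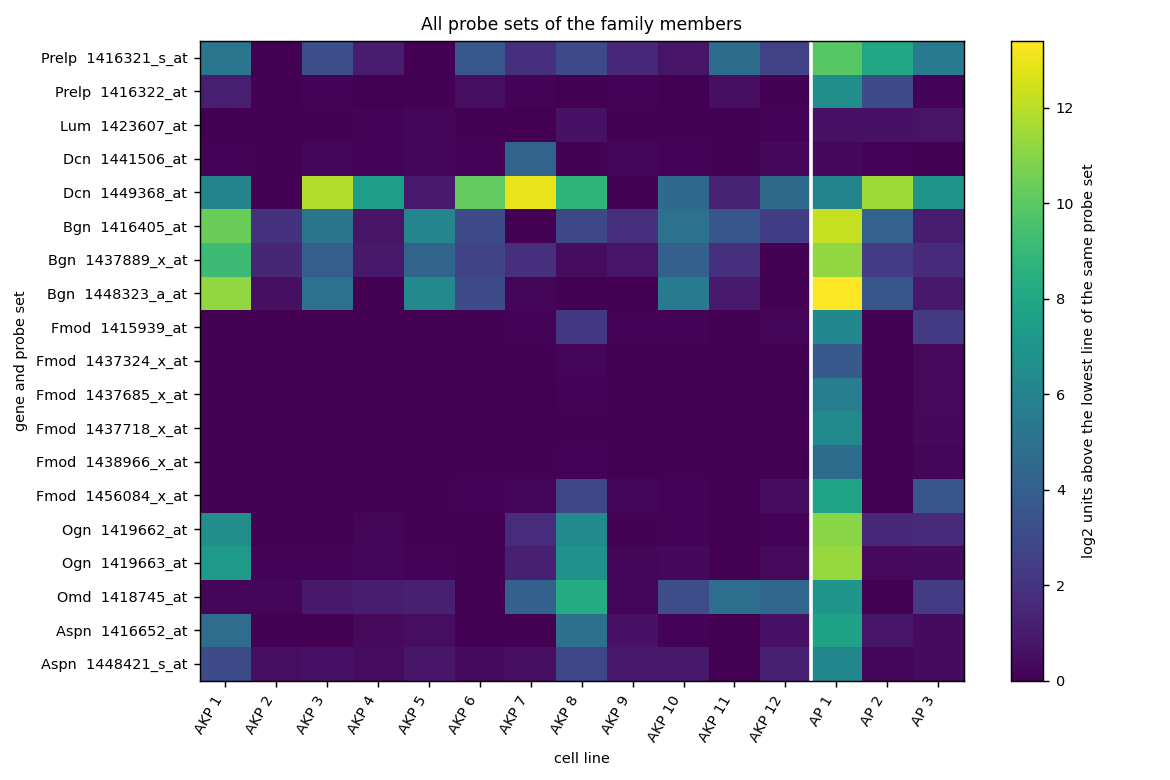
Heat map of all 19 probe sets of the 8 members (rows) in the 15 lines (columns, AKP left of AP, divided by a white bar), coloured by log2 units above the lowest line of the same probe set. AKP 1 is bright in the rows of Bgn and Ogn, AKP 8 in those of Ogn and Omd and AP 1 in most, while the main Dcn row is bright in AKP 3, AKP 6, AKP 7, AKP 8 and AP 2.

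Levels of the matrix members went with the fibroblast markers in some cases, though not with these alone. Over the 15 lines the correlation with the median of the fibroblast markers was 0.887 for Ogn, 0.750 for Prelp, 0.739 for Bgn and 0.200 for Dcn. Without AP 1 and AKP 1 it was 0.609 for Ogn, 0.599 for Prelp, -0.02 for Bgn and 0.422 for Dcn. Of the lines left, AKP 8 was the highest for Ogn (9.75) and for the fibroblast markers (7.95). Ogn lay between 2.90 and 4.07 in the others. With the simple epithelium markers the correlation over the 15 lines was -0.74 for Ogn, -0.58 for Bgn, -0.30 for Prelp and -0.11 for Dcn. Without AP 1 and AKP 1 it was -0.42 for Ogn, -0.03 for Bgn, 0.286 for Prelp, with the sign turned, and -0.16 for Dcn. The smooth muscle and pericyte markers had a correlation of 0.897 with Aspn, 0.894 with Fmod and 0.444 with Omd over the 15 lines. For the fibroblast markers these were 0.811, 0.677 and 0.321. Without AP 1 and AKP 1 they were 0.593, 0.559 and 0.119 for smooth muscle, and 0.362, 0.701 and 0.354 for fibroblast markers. With all 15 lines the smooth muscle correlation with Ogn, Bgn, Prelp and Dcn was below the fibroblast one, at 0.827, 0.672, 0.559 and -0.06. Cartilage and bone markers had a correlation of 0.044 with Fmod over the 15 lines. Without AP 1 and AKP 1 it was 0.721, beside 0.701 for the fibroblast markers. Without those lines it was below the fibroblast one for Prelp, Dcn, Bgn, Ogn, Omd and Aspn. Dcn was bright in lines with a high epithelial median, AKP 3 (12.44) and AP 2 (11.5), and on the floor in others with a similar one, AKP 9 (12.97) and AKP 11 (12.45). Endothelial markers had a correlation of 0.573 with Prelp, 0.445 with Dcn, 0.152 with Bgn and 0.153 with Ogn over the 15 lines. Without AP 1 and AKP 1 it was 0.569, 0.487, 0.034 and -0.07. Both values lay above the fibroblast ones for Dcn and below them for Prelp and Ogn. The endothelial median was at most 4.50, and below the floor except in AP 1, AP 2 and AKP 7. The part of cell type in the differences between lines was not tested.

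**Figure D5:**
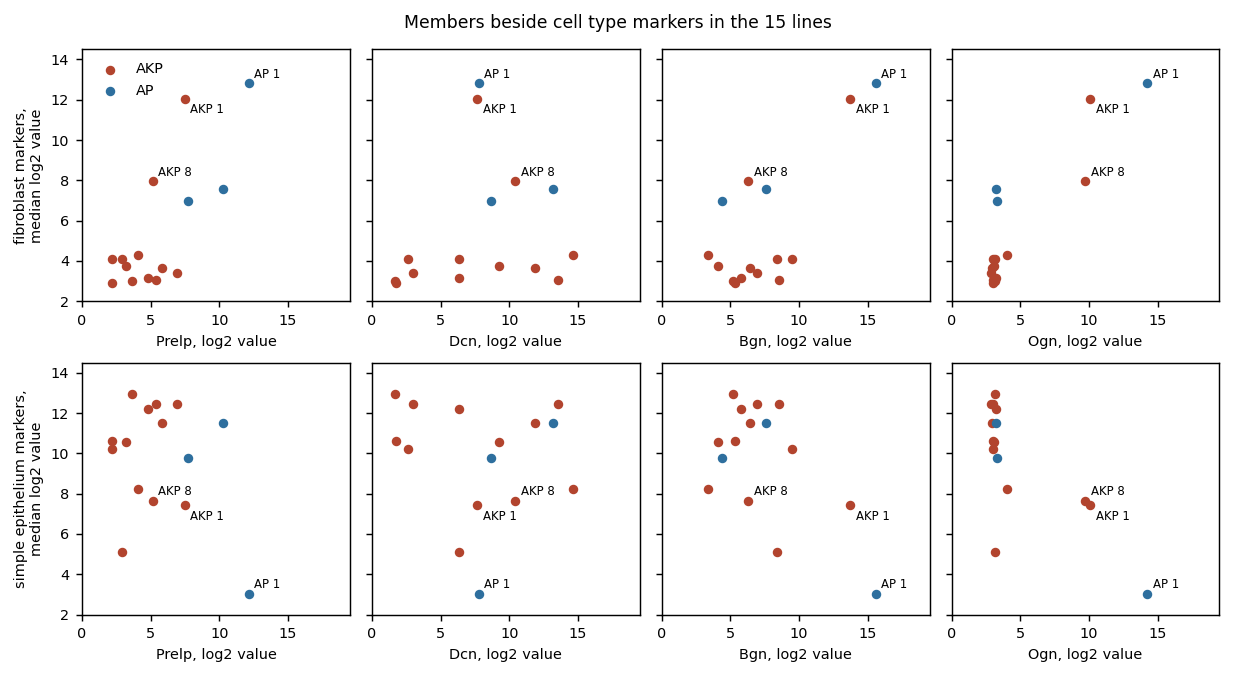
Prelp, Dcn, Bgn and Ogn (x axes, log2 values) against the median log2 value of fibroblast markers (upper row) and simple epithelium markers (lower row) in each of the 15 lines, AKP in red and AP in blue. AKP 1 and AP 1 lie high for fibroblast markers in all upper panels, at 12.06 and 12.81, and AP 1 lies lowest for epithelium markers, at 3.04; Dcn spreads over its whole range among lines with few fibroblast markers.

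The genes whose pattern over the 15 lines was most like each member were sought among 3478 other genes with an SD of at least 1. For Prelp they were Zfp618 (r = 0.884), Lbp (0.882) and Pde1b (0.881), and without AP 1, its highest line, r was 0.855, 0.844 and 0.795. For Dcn they were Rnase1 (0.866), Nostrin (0.833) and Auts2 (0.807), with 0.837, 0.791 and 0.774 without AKP 7. For Bgn they were Fetub (0.921), Calml4 (0.919) and Ifi27l2b (0.895), with 0.857, 0.855 and 0.850 without AP 1. For Fmod they were Phyhipl (0.993), Mrvi1 (0.942) and Apba1 (0.941), and without AP 1 the values were 0.977, 0.743 and 0.759. For Ogn they were Thy1 (0.984), a surface protein of fibroblasts and T cells, Prickle2 (0.976) and Larp6 (0.974), which binds type I collagen messages, and r stayed between 0.960 and 0.978 without AP 1. For Aspn they were Slc2a10 (0.983), Ptgfr (0.961) and Dpt (0.953), itself a matrix protein that binds decorin, with 0.943, 0.902 and 0.854 without AP 1. For Omd they were Mrgprf (0.808), Mn1 (0.804) and Cep295nl (0.799), and r was 0.682, 0.701 and 0.678 without AKP 8, its highest line. Spearman's rho for these pairs over the 15 lines ran from 0.254 (Apba1 with Fmod) to 0.889 (Zfp618 with Prelp). It was 0.468, 0.614 and 0.586 for the 3 genes of Ogn, and between 0.846 and 0.882 for those of Dcn. The high r of Ogn without AP 1 still included AKP 1 and AKP 8, with the other lines between 2.90 and 4.07. Lum spanned too little for such a search.

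Other genes of the family, of chain synthesis and of the collagen fibre were set beside the members in the comparison of AKP with AP, where limma called 1.9% of all genes at an adjusted p under 0.05 and 16.5% had an unadjusted p under 0.05. Of 9 measured other family genes 0 were called and 1 had an unadjusted p under 0.05, with a median difference of 0.02. That one was Chadl, at 4.93 ± 0.65 in AKP (SD, n = 12) and 6.09 ± 0.15 in AP (SD, n = 3; limma adjusted p = 0.14). Kera, Optc and Nepn lay below the floor in every line. Nyx did so in 14 of the 15 lines, Chad in 12 and Ecm2 in 11, and Podn and Epyc reached at most 3.95 and 4.65. The median over these family genes thus came mostly from levels near the floor. Of 21 measured enzymes that build chondroitin and dermatan sulfate 0 were called and 6 had an unadjusted p under 0.05, with a median of -0.59, and the lowest p was that of Chpf2, a chain-elongating factor, which differed by -1.51 ± 0.39 (SE; limma adjusted p = 0.067). It was called without AKP 8 (adjusted p = 0.023) and without AP 2 (0.035). Of 8 keratan sulfate enzymes 0 were called and 0 had an unadjusted p under 0.05; B3gnt7 had the lowest p but lay below the floor in all 15 lines.

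Of 13 collagens of the fibres that the family binds, 1 fell and 0 rose, with a median difference of -2.62 that was -0.12 without AP 1 and -4.46 without AP 2. Col1a1, a chain of type I collagen, averaged 4.57 ± 1.74 in AKP (SD, n = 12) and 9.59 ± 2.17 in AP (SD, n = 3), which differ by -5.02 ± 1.13 (SE, with 0.040 as limma's adjusted p). AKP 1 lay at 10.05, between AP lines, and the other 11 AKP lines were lower than all 3 AP lines. Leaving out 1 line kept the call in 3 of 15 cases, with an adjusted p between 3e-04 without AKP 1 and 0.14 without AP 1. Without AKP 8, Col12a1 was called as well (adjusted p = 0.023). Of 17 measured genes of collagen processing and cross-linking 0 were called and 5 had an unadjusted p under 0.05, with a median of -1.29, or -0.21 without AP 1. Bmp1, the protease that trims procollagen and the biglycan precursor, differed by -2.14 ± 0.60 (SE; limma adjusted p = 0.088) and was called without AP 2 (adjusted p = 0.047), and Sparc was called without AKP 1 (adjusted p = 0.024).

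Of 15 ligands and receptors that family members are known to bind, 0 were called and 6 had an unadjusted p under 0.05, with a median of 0.10. Tgfb2, a TGF-beta ligand, averaged 8.13 ± 1.62 in AKP (SD, n = 12) and 12.42 ± 1.93 in AP (SD, n = 3), at a limma adjusted p of 0.052, and was called in 4 of 15 fits without 1 line, with an adjusted p between 0.028 (without AP 1) and 0.18 (without AP 3). Tlr2, a receptor for biglycan, was called without AKP 8 (adjusted p = 0.022). Bmp2 was called higher without AP 2 (adjusted p = 0.050). Of 12 proteases known to cut such cores 0 were called and 5 had an unadjusted p under 0.05, with a median of -1.0, or -0.31 without AP 1; the lowest p was that of Adamts1, at 8.89 ± 1.71 in AKP (SD, n = 12) and 12.64 ± 0.63 in AP (SD, n = 3; limma adjusted p = 0.073). Adamts1 was called without AKP 1 (adjusted p = 0.018), and Mmp7 and Mmp9 without AP 1 (0.044 and 0.0047). Of 26 other matrix and cell surface proteoglycans 0 were called and 4 had an unadjusted p under 0.05, with a median of -0.15. Cd44, a hyaluronan receptor, had the lowest p, at 14.12 ± 0.29 in AKP (SD, n = 12) and 13.09 ± 1.11 in AP (SD, n = 3; limma adjusted p = 0.12), and was called without AP 2 (adjusted p = 0.0089). Without AKP 1 and AKP 8, as in the authors' mean, limma called more of these genes lower in AKP, and 2.14% of all genes. The calls were Chpf2 of the chondroitin sulfate enzymes, Col1a1, Col6a2 and Col12a1 of the collagens, Plod3, Bmp1 and Sparc of collagen processing, Tgfb2, Ccn4 and Tlr2 of the binding partners, Adamts1 of the proteases and Tgfbr3 of the other proteoglycans. The fibroblast markers, which share Col1a1, had 1 member called of 9 and a median difference of -3.85, and the simple epithelium markers 0 of 8 and 1.71. Without AP 1 the medians were -0.93 for the fibroblast markers and -0.68, with the sign turned, for the epithelium markers.

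The sex labels allow a test that the choice of the genes did not use. In 4 lines, though, the sex-linked genes did not bear out the label. Xist lay at 2.67 and Eif2s3y at 12.71 in AKP 11, labelled female, and at 3.21 and 8.47 in AP 3, labelled female, while AKP 2, labelled female, and AKP 5, labelled male, had neither above 3.24. With genotype as a covariate, limma called 0 of the 8 members and 0% of all genes between female and male lines, and 0 members had an unadjusted p under 0.05, against 3.16% of all genes. Bgn, an X-linked gene, had the widest difference, at 6.60 ± 2.88 in female lines (SD, n = 10) and 9.02 ± 4.18 in male lines (SD, n = 5), which gave -2.01 ± 1.93 (SE, female minus male; limma adjusted p = 1). Leaving out 1 line moved it between -3.56 without AKP 4 and -0.48 without AP 3. For Prelp the difference was 0.96 ± 1.04 (SE; limma adjusted p = 1), and it ran from 0.40 without AKP 5 to 2.27 without AP 3 (unadjusted p = 0.032, limma adjusted p = 1). Without the 4 lines, 7 female and 4 male lines remained, and Prelp had a difference of 2.13 ± 0.90 (SE; unadjusted p = 0.042, limma adjusted p = 1), while that of Bgn was 0.78 ± 2.79 (SE; limma adjusted p = 1). The adjusted p was 1 for all 8 members in both fits.

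The pair number gives a second such test, between 7 AKP lines with a number and 5 without. Limma called 0.17% of all genes and 0 of the 8 members, and 14.1% of all genes had an unadjusted p under 0.05. Among the members this was so for Omd, at 6.46 ± 2.86 in lines with a number (SD, n = 7) and 3.60 ± 0.48 in lines without (SD, n = 5), which differ by 2.86 ± 1.25 (SE; unadjusted p = 0.044, limma adjusted p = 0.33). The 5 lines without a number lay between 3.05 and 4.08, and of the 7 with one, AKP 6 and AKP 9 lay at 2.90 and 3.06 and the other 5 between 6.07 and 11.17. Leaving out 1 line moved the difference of Omd between 2.08 without AKP 8 and 3.45 without AKP 6, and the limma adjusted p between 0.25 and 0.55. Bgn differed by -2.18 ± 1.51 (SE; limma adjusted p = 0.62), between -3.21 without AKP 4 (unadjusted p = 0.047, limma adjusted p = 0.35) and -0.80 without AKP 1. The other 6 members had adjusted p-values between 0.76 and 0.99.

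AKP 6, the only line labelled adenoma, has no replicate, so its values are set beside the 11 tumour lines with no test. Omd lay at 2.90 in AKP 6, below all 11 tumour lines, which ran from 3.05 to 11.17. AKP 2, AKP 9 and AKP 1 lay close to it, at 3.05, 3.06 and 3.13, near the floor, where a level cannot be told from background. Dcn lay at 11.89 in AKP 6, with 2 tumour lines above it and a tumour mean of 7.02 ± 4.59 (SD, n = 11). Prelp lay at 5.84, against 4.36 ± 1.77 in tumour lines, also with 2 tumour lines above it. Ogn and Aspn, at 2.97 and 4.62, lay below 10 of 11 tumour lines, with Ogn at the floor. Fmod, Bgn and Lum lay inside the tumour range, at 3.15, 6.41 and 2.42.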

How the data were processed

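The authors deposited 1 log2 value for each probe set and line, from 1 Affymetrix mouse array each; how the arrays were background-corrected, summarized and scaled, and with which software, is not stated in any source at hand. A second deposited table gives the authors' comparison of the genotypes, with p-values, t scores, log2 means, a linear ratio and a signed fold score, per the file headers.

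Of 45101 probe sets 64 controls were left out, and the platform's annotation gave a single gene to 34945, several to 932 and none listed to 9160. Each gene was represented by its probe set with the highest mean over 15 arrays, called the main probe set. No further scaling, pseudocount or filter was applied. For each comparison limma 3.58.1 (R 4.3.3) gave two-sided p-values from lmFit and eBayes, adjusted by Benjamini-Hochberg over 18193 genes at a threshold of 0.05, and the fit was tested on simulated data. Group means, correlations and motif counts were computed in Python 3.11.15 with scipy; promoters are RefSeq's, on GRCm38.p6. P-values measure only the spread between these lines.

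Named genes are all 8 members; of each other list the called genes, at most 4, or else the one with the lowest p; and the 3 genes most like each member that spans at least 4 units. Genes called only without 1 or more lines were named after their values were seen. The members, lists and tests were chosen with earlier results of these data known. The labels do not say that replicate numbers shared by the groups pair the lines, and the main fit did not treat them as pairs. Deviations from the group means correlated at 0.46, -0.04 and -0.06 for numbers 1 to 3, which does not settle it. Alternatives covered scaling, probe set rule, dim genes, covariates, a replicate block, array weights and lines left out.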

Additional observations from a re-analysis of the deposited data

Results flagged for a closer look

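Each of the 8 members was checked by its main probe set in 4 sets of 5 to 10 lines. The sets were female, male, AKP with and AKP without a pair number, and a highest or lowest line far from the others was sought. The limit used is passed by chance in about 1 of 20 single checks, and the 32 checks share lines and genes, so the 11 that passed are not a test. All but 1 of them are high values of AKP 1, AKP 8 or AP 1. AKP 1 stood out among the AKP lines without a pair number for Ogn (10.09, next 3.10) and Aspn (7.30, next 5.05), and among the female lines for Bgn (13.74, next 8.52). AKP 8 stood out among the AKP lines with a pair number for Fmod (5.89, next 3.47), Ogn (9.75, next 4.07) and Aspn (7.11, next 5.44). In the _x_at sets of Fmod other than the main one, AKP 8 lay below the floor, between 1.71 and 2.87. AP 1 stood out among the male lines for Fmod (10.87, next 3.17), Ogn (14.26, next 3.23) and Aspn (10.39, next 5.11). The other 2 lie at the floor of the arrays, the high value of Lum in AKP 8 (2.995, next 2.48) and the low value of Fmod in AKP 2 (3.06, next 3.12).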

How the results depend on the processing

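The 345 genes called between AKP and AP became 195 among genes past the 60th percentile of brightness, 153 with array weights and 728 without AKP 1 and AKP 8. They became 0 with the replicate number as a replicate block, which leaves few degrees of freedom. The labels do not say that these numbers pair the lines. Leaving out 1 line gave 177 (without AP 3) to 584 (without AP 2), with 216, 224, 219 and 540 without AKP 6, AKP 5, AKP 11 and AKP 8. Of the calls 144 were higher in AKP and 201 lower; with each array centred on its median they were 256 and 161, and with array weights 25 and 128. The count of 0 between the sexes became 7 without the 4 lines whose sex-linked genes did not bear out the label, a choice made after seeing the data. It was 0 to 1 leaving out 1 line (1 without AKP 5). The count of 31 for the pair number became 90 with brighter genes, 123 with sex as a covariate and 0 to 503 leaving out 1 line, with 0 without AKP 3, AKP 9 or AKP 10 503 without AKP 5, 23 without AKP 4 and 1 to 6 without any other line. Without both AP 1 and AKP 1 the difference between the genotypes turned in some main probe sets. It became 0.36 for Bgn, 0.49 for Ogn, 1.42 for Omd and 0.56 for Aspn. With the replicate block it was 0.014 for Bgn, and in the second probe set of Dcn 0.34. Leaving out 1 line, it ran from -4.61 to 0.97 for Bgn, from -4.49 to 1.02 for Ogn, from -2.30 to 1.23 for Omd and from -2.24 to 0.75 for Aspn. Fmod moved to -1.42 without AP 1 and AKP 1, and Prelp to -3.06 in its dimmer probe set. The causes were not tested. Signals near the floor of 3 limit Lum and the low lines of the other members.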
